A study of Homo sapiens with 2 samples.

Results

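Airway secretory proteins were described through 10 genes, CHI3L1, SLPI, WFDC2, LCN2, PIGR, LTF, TFF3, SCGB1A1, SCGB3A2 and BPIFB1, of 27685 genes listed for 1 RNA-seq library of H2087 cells and 1 of H596 cells. Both are established human cell lines labelled as lung adenocarcinoma, grown untreated in RPMI medium with fetal bovine serum, and each is a single culture of tumour cells without the other cells of an airway. The genes were chosen by symbol around CHI3L1, whose FPKM in both libraries had been seen, so their values and differences are given as a description. FPKM is the number of fragments scaled to transcript length and library size. The estimated counts summed to 46961500 in H2087 and 55387847 in H596. With 1 library per cell line, no value has a replicate check, no test between the lines was possible, and the intervals below are 95% intervals for counting error only.

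Surface and gland cells of the airway release a mixture of proteins that protect the lining. It holds inhibitors of leukocyte proteases, proteins that withhold iron from bacteria, lipid-binding and chitinase-like proteins, trefoil peptides, secretoglobins, and antibodies carried across the epithelium. Club cells are known for secretoglobins, goblet cells for mucins and trefoil peptides, and gland cells for lactoferrin, lysozyme and protease inhibitors. Neutrophils store some of the same proteins, including lactoferrin and lipocalin 2.

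The 2 cell lines shared some members of this set and differed in others. SLPI, LCN2 and BPIFB1 were above an FPKM of 10 in both libraries. In H2087, CHI3L1, SLPI and WFDC2 were high, with an FPKM of 141, 95.5 and 63.7. In H596, LCN2 and SLPI were high, with an FPKM of 460.4 and 253, while CHI3L1 had no counts and WFDC2 had 4. Of the 10 genes, 2 (CHI3L1 and WFDC2) were at least 2-fold higher in H2087, and 4 (LCN2, SCGB1A1, PIGR and SLPI) were at least 2-fold higher in H596, on the log2(FPKM + 1) scale. BPIFB1 differed by less than 2-fold, and LTF, SCGB3A2 and TFF3 were at or close to 0 in both. Of the 13048 genes whose mean FPKM was 1 or more, 14.2% were higher in H2087 and 18.2% higher in H596 by the same 2-fold rule. Of all 27685 genes, these shares were 7.45% and 9.19%. The mean FPKM was at least 1 for 7 of the 10 genes. Because the differences between the lines were in view when the list was made, nothing is read from its counts against these shares.

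**Figure D1:**
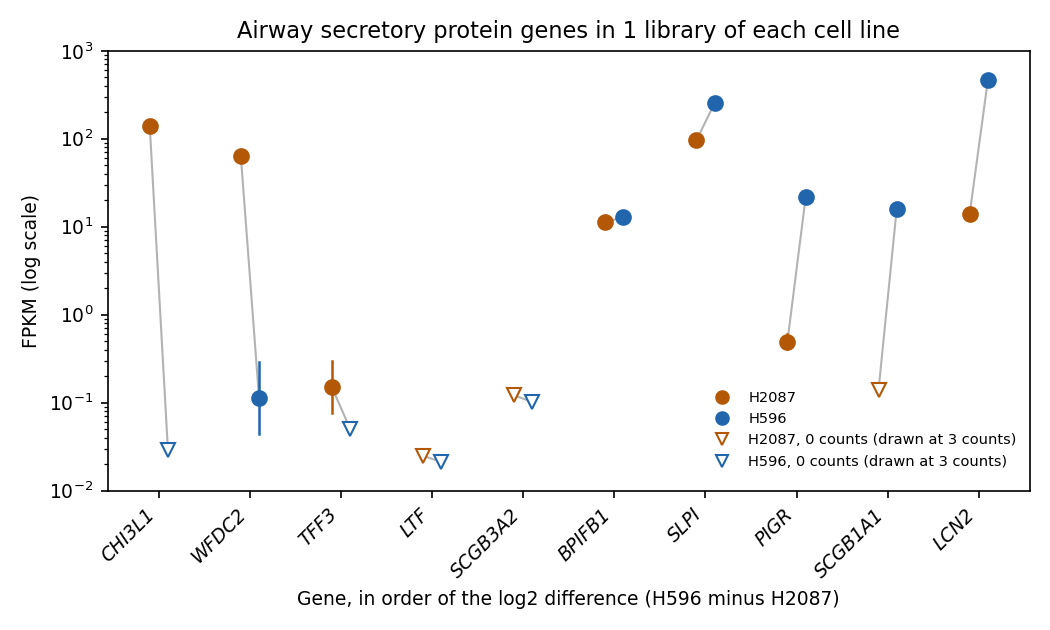
FPKM of the 10 genes (log axis) in H2087 (orange) and H596 (blue), ordered by the log2 difference, with 95% intervals for counting error where they exceed the symbol. Open triangles stand for 0 counts and are drawn at the FPKM of 3 counts. CHI3L1 and WFDC2 lie on the left with H2087 far above H596, and PIGR, SCGB1A1 and LCN2 on the right with the opposite order.

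The summed FPKM of the 10 genes was 326 in H2087 and 764 in H596. In H2087, CHI3L1 held 43.2% of this sum, SLPI 29.3% and WFDC2 19.6%. In H596, LCN2 held 60.2% and SLPI 33.1%. SLPI thus held a large share of the sum in both libraries. In each library 5 of the 10 reached an FPKM of 1, and the same 5 reached 10. SLPI, LCN2 and BPIFB1 were the genes above 10 in both. The median difference of the 10 genes, H596 minus H2087 on the log2(FPKM + 1) scale, was 0.08, beside 0 for all listed genes. It was 0.12 for the 13048 genes whose mean FPKM was 1 or more, a limit that 7 of the 10 reached.

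CHI3L1 encodes a chitinase-like glycoprotein that binds chitin but has lost the enzyme activity, and it is secreted by macrophages and epithelial cells. The gene (1116) lies on the minus strand of chromosome 1 of hg19, from 203148059 to 203155922, with 1 listed transcript, NM_001276. Its FPKM in H2087 was 141 (138 to 143) from 12400 counts, rank 483 among all genes. In H596 it had 0 of 55387847 counts. A count of 0 was given a limit of 3 counts, an FPKM of 0.0288, for counting error only. The estimate in H2087 was 4894-fold that limit. Of the 704 genes that reached an FPKM of 100 in H2087, 3 (0.426%) had 0 counts in H596, and CHI3L1 was one of them. Since CHI3L1 was chosen with both values in view, its place among them is only a description. The 5 genes whose pair of log2(FPKM + 1) values lay nearest to that of CHI3L1 were SFTA3, EREG, THBD, NKX2-1 and GAL, at distances of 0.48 to 0.69. This likeness rests on 2 libraries. SFTA3 had 101 FPKM in H2087 and 0.0304 FPKM in H596, and EREG, which encodes an EGFR ligand, 99.3 and 0.0533.

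WFDC2 and SLPI belong to the whey acidic protein (WAP) family of small, disulfide-rich proteins. SLPI inhibits neutrophil elastase and cathepsin G and is a main antiprotease of airway secretions. WFDC2 is a secreted protein of airway, genital tract and gland epithelium, used as a serum marker of ovarian cancer. SLPI (gene 6590, NM_003064) lies on the minus strand of chromosome 20, from 43880880 to 43883205. It had an FPKM of 95.5 (92.0 to 99.1) in H2087 and 253 (248 to 259) in H596. Its share of the counts was 2.66-fold (2.55 to 2.78) higher in H596. In H596 it ranked 200 among all genes, and in H2087 744. WFDC2 (gene 10406, NM_006103) lies on the plus strand of the same chromosome, from 44098394 to 44110172. Its FPKM was 63.7 (60.8 to 66.8) in H2087 from 1729 counts. In H596 it was 0.113 (0.0440 to 0.291) from 4 counts. Its share of the counts was 509.8-fold (199 to 1873) higher in H2087, a ratio whose width reflects the 4 counts. The related protease inhibitors of the family thus went in opposite directions, SLPI towards H596 by a small factor and WFDC2 towards H2087 by a large one.

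SLPI and WFDC2 lie 215 kb apart in a cluster of WAP genes, with 9 listed genes between them. From WFDC5 to WFDC3 the tables list 29 genes, of which 14 are of the WAP family. Of these 14, 8 had 0 counts in both libraries. PI3, which encodes the elastase inhibitor elafin and lies on the same side as SLPI, had 0 FPKM in H2087 and 3.92 FPKM in H596. On the far side of WFDC2, WFDC10B had 3.19 FPKM in H2087 and 0 FPKM in H596. WFDC3, at the end of the cluster, had one of 13.7 in H2087 and 0.176 in H596. By the 2-fold rule 9.19% of all listed genes were higher in H596 and 7.45% in H2087. Nothing particular to the cluster is read from its counts. Of the 14 genes, 2 (PI3 and SLPI) were at least 2-fold higher in H596 and 3 (WFDC2, WFDC10B and WFDC3) at least 2-fold higher in H2087. Among the 15 other listed genes, 0 were at least 2-fold higher in H596 and 1, DBNDD2, was higher in H2087, with an FPKM of 104 against 18.6. Also between SLPI and WFDC2, SDC4, SYS1 and PIGT were expressed in both libraries, with an FPKM of 120.1, 12.5 and 73.3 in H2087 and 183, 16.8 and 142 in H596. DBNDD2 overlaps the read-through gene SYS1-DBNDD2, and how reads were divided between them is not stated.

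**Figure D2:**
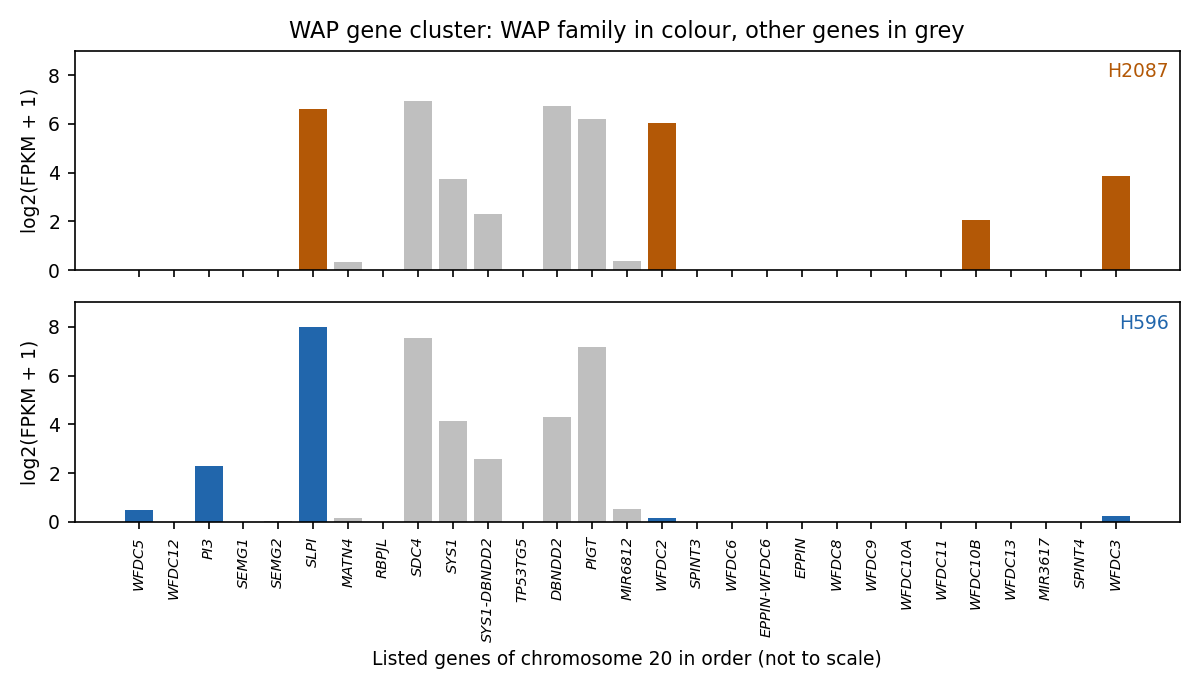
Level of the 29 listed genes from WFDC5 to WFDC3, as log2(FPKM + 1), in chromosome order, in H2087 (top) and H596 (bottom). WAP genes are coloured and other genes grey. In H2087 the coloured bars are SLPI, WFDC2, WFDC10B and WFDC3, and in H596 SLPI stands high beside a low PI3 while WFDC2 is near 0.

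LCN2 and LTF encode proteins that deprive bacteria of iron. LCN2, or lipocalin 2, captures bacterial siderophores, and LTF, lactoferrin, binds iron itself. LCN2 (gene 3934, NM_005564) lies on the plus strand of chromosome 9, from 130911709 to 130915734. Its FPKM was 13.8 (12.7 to 15.0) in H2087 from 561 counts and 460.4 (454 to 467) in H596 from 22077 counts. Its share of the counts was 33.4-fold (30.7 to 36.3) higher in H596, where it ranked 108 among all genes. It was present in both libraries, and in H596 it was the highest of the 10 genes. LTF (gene 4057, minus strand of chromosome 3, from 46477496 to 46526724) had 0 counts in both libraries for all 4 listed transcripts. For the shortest of them, 3 counts would be 0.0250 FPKM in H2087 and 0.0211 FPKM in H596. LTF RNA was therefore not detected at this depth, and of LCN2 and LTF only LCN2 was detected.

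PIGR, the polymeric immunoglobulin receptor, carries IgA through epithelial cells and releases it with its own outer part as secretory component. The gene (5284, NM_002644) lies on the minus strand of chromosome 1, from 207101867 to 207119811. Its FPKM was 0.495 (0.408 to 0.6005) in H2087 from 102 counts and 21.5 (20.9 to 22.1) in H596 from 5218 counts. Its share of the counts was 43.4-fold (35.7 to 53.3) higher in H596. PIGR and CHI3L1 lie on the same chromosome arm and differed in opposite directions. JCHAIN, the joining chain made by plasma cells that the receptor recognises, had 0 counts in both libraries.

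BPIFB1 is a secreted protein of the BPI fold family, whose members bind lipids and bacterial lipopolysaccharide. The gene (92747, NM_033197) lies on the plus strand of chromosome 20, from 31870941 to 31897684. It had an FPKM of 11.3 (10.6 to 12.03) in H2087 from 935 counts and 12.8 (12.1 to 13.5) in H596 from 1256 counts. Its share of the counts was 1.14-fold (1.05 to 1.24) higher in H596, the smallest difference among the 7 whose mean FPKM reached 1. Of the BPI fold genes in the list used here, 7 others lie within 500 kb of BPIFB1, and none of them had an FPKM above 0.219 in either library. BPIFA1, the adjacent gene and an abundant product of the upper airway, had 5 counts in H2087 and 0 in H596. BPIFB1 was thus detected in both lines while its neighbours of the same family were near 0.

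Secretoglobins are small dimeric proteins, and SCGB1A1 is the defining product of club cells. SCGB1A1 (gene 7356, NM_003357) lies on the plus strand of chromosome 11, from 62186507 to 62190678. In H2087 it had 0 of 46961500 counts, where 3 counts would be an FPKM of 0.138. In H596 it had 413 counts and an FPKM of 16.1 (14.6 to 17.7), an estimate 116-fold the H2087 limit of 3 counts. SCGB3A2, a secretoglobin of small airways (gene 117156, plus strand of chromosome 5, from 147258274 to 147261756), had 0 counts in both libraries, with limits of 0.121 and 0.102 FPKM. The 7 other secretoglobins listed, including SCGB3A1, also had 0 counts in both. SCGB1A1 in H596 was therefore the one secretoglobin detected among the 9 examined. Of the other club cell markers, CYP2F1 had 0 counts in H2087 and 52 in H596, an FPKM of 0.495.

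TFF3 encodes a trefoil peptide that goblet cells release with mucins and that takes part in repair of the epithelium. The gene (7033, minus strand of chromosome 21, from 43731777 to 43735706) had 8 counts in H2087, an FPKM of 0.150 (0.0759 to 0.295), and 0 counts in H596. The other trefoil genes, TFF1 and TFF2, had 0 counts in both libraries. Of the 5 goblet cell markers examined, 4 had an FPKM under 1 in both libraries. The exception was the transcription factor SPDEF, with 2.86 in H2087 and 0.405 in H596.

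**Figure D3:**
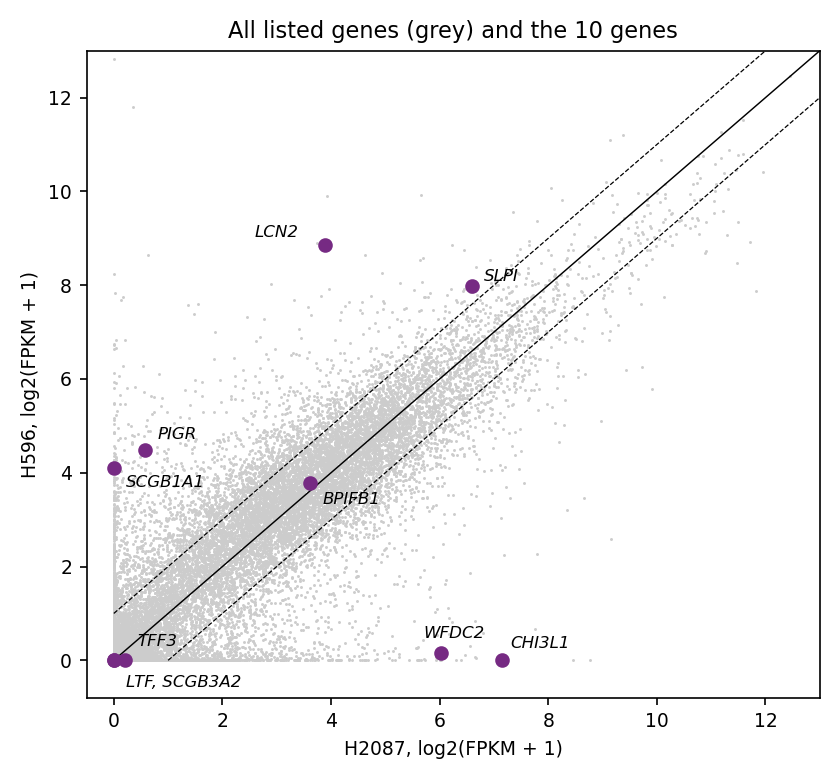
log2(FPKM + 1) of every listed gene (grey) in H2087 (horizontal) and H596 (vertical), with the 10 genes in purple, the line of equal values and the 2-fold limits (dashed). CHI3L1 and WFDC2 lie along the horizontal axis, LCN2, PIGR and SCGB1A1 far above the upper dashed line, and BPIFB1 near the line of equal values.

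The reference sequence before the start of the genes was examined for the genes on which the differences in each direction turn. RefSeq windows of GRCh38.p14 were found for 7 of the 10 genes (not for SLPI, TFF3 and SCGB1A1), and each was placed on GRCh37 (hg19) by its only exact match. The 250 bases before the RefSeq start are shown for CHI3L1 (chr1:203155833-203156082, minus strand), WFDC2 (chr20:44098143-44098392, plus strand), LCN2 (chr9:130911482-130911731, plus strand) and PIGR (chr1:207119812-207120061, minus strand), 5′ to 3′. Capitals mark matches, on either strand, to a TATA box (TATAAA), C/EBP-type (TTGCNNAA), AP-1-type (TGANTCA), FOXA-type (TGTTTNC), ETS-type (AGGAAG), NKX-type (CAAGTG) or NF-kB-type motif.
CHI3L1: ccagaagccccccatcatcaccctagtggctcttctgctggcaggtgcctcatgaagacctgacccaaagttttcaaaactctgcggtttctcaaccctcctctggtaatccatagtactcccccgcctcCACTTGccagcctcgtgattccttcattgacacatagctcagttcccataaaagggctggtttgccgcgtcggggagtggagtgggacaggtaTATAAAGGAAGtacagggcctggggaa
WFDC2: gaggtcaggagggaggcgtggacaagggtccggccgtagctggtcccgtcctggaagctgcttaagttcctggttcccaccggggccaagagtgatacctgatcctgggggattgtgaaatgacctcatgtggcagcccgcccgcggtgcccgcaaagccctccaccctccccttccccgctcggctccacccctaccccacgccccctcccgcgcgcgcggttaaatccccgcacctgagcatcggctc
LCN2: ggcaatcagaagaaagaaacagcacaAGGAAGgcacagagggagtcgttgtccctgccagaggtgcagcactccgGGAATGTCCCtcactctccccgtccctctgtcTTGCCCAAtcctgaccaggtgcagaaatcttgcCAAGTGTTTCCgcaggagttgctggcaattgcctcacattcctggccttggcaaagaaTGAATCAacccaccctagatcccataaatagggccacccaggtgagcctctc
PIGR: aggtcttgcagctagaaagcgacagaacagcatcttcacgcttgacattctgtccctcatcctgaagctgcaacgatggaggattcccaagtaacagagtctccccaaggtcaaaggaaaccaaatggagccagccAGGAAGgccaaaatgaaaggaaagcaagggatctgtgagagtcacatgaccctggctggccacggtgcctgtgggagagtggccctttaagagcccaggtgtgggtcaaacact

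The 4 sequences differed in base composition and in the letters searched. The WFDC2 window had a GC content of 67.2% and 19 CpG dinucleotides, and held none of the 7 motifs. The windows of CHI3L1, LCN2 and PIGR had 6, 4 and 4 CpG dinucleotides and a GC content of 54%, 54.8% and 52.8%, where the medians of all 35116 RefSeq windows were 11 and 58%. The CHI3L1 window held a TATA box whose first base is 27 bases before the start, an ETS-type match that overlaps it, and an NKX-type match. The LCN2 window held 6 of the 7 motifs, all but the TATA box, with the NKX-type and FOXA-type matches overlapping. The PIGR window held an ETS-type match only. Of the windows not shown, that of SCGB3A2 held the TATA box and C/EBP-, AP-1-, FOXA- and NKX-type matches. Those of LTF held C/EBP-, NKX- and ETS-type matches, and that of BPIFB1 ETS-type matches only. SCGB3A2 and LTF had 0 counts in both libraries. Among all windows, 10.7% held the TATA box, 9.05% the C/EBP-type, 9.96% the NF-kB-type, 6.57% the AP-1-type, 15.5% the FOXA-type, 28.7% the ETS-type and 9.50% the NKX-type motif. These matches describe letters, and binding was not measured. The deposited CHI3L1 transcript begins 90 bases before the RefSeq start used here, the LCN2 transcript 23 bases before it, and those of WFDC2 and PIGR within 1 base of it.

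The genes on either side did not all follow the 10 genes. Next to CHI3L1, MYBPH had 23.5 FPKM in H2087 and 0 counts in H596, and ADORA1, an adenosine receptor gene, 16.6 and 0.174. Both thus went in the direction of CHI3L1. CHIT1, the active chitinase gene on the other side of CHI3L1, had 0 counts in both libraries. Next to LCN2, C9orf16 had an FPKM of 26.8 and 85.5 and CIZ1 one of 26.2 and 55.5, both at least 2-fold higher in H596, while PTGES2 had 27.4 and 27.6. Next to PIGR, FCAMR, another immunoglobulin receptor gene, had 0 and 10 counts, and C1orf116 had 10.6 FPKM in H2087 and 42.5 FPKM in H596. Next to SCGB1A1, AHNAK had an FPKM of 19.5 and 109, and ASRGL1 on the other side went the opposite way, with 11.95 and 0.320. MIR3654, which lies within EEF1G, had 59.6 and 26.7 and cannot be separated from its host by these tables. Of the 6 genes nearest to each of LTF, TFF3 and SCGB3A2, 4, 5 and 5 had an FPKM under 1 in both libraries. The number was also 4 for each of CHI3L1, SLPI and WFDC2. It was 3 for PIGR and BPIFB1, 2 for SCGB1A1 and 0 for LCN2. Of all 27685 listed genes, 13892 were under 1 in both, and nothing particular to the neighbours is read from these counts.

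**Figure D4:**
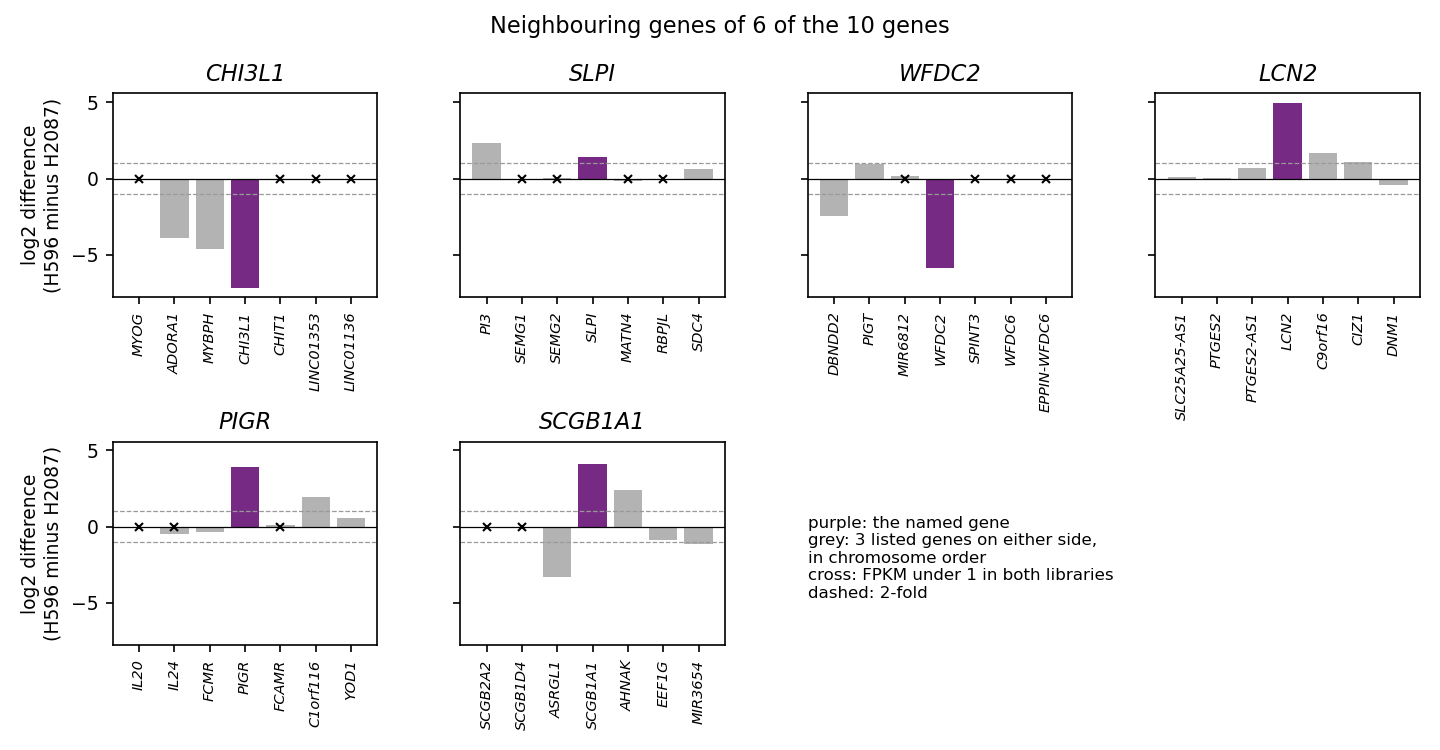
log2(FPKM + 1) difference, H596 minus H2087, of CHI3L1, SLPI, WFDC2, LCN2, PIGR and SCGB1A1 (purple) and of the 3 listed genes on either side (grey, in chromosome order, crosses for an FPKM under 1 in both libraries). ADORA1 and MYBPH lie below 0 beside CHI3L1, and ASRGL1 and AHNAK lie on opposite sides of 0 beside SCGB1A1.

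Most relatives of the 10 genes had an FPKM under 1 in both libraries, as had 13892 of all 27685 listed genes. Of all listed genes, 8410 had 0 counts in both, and 9.19% were higher in H596 and 7.45% in H2087 by the 2-fold rule. Nothing particular to the relatives is read from the counts below. Of the 6 chitinase family genes examined, 3 stayed under an FPKM of 1 in both libraries. The highest, CHID1, had 24.8 FPKM in H2087 and 21.8 FPKM in H596. CHI3L2, a close relative of CHI3L1, had 7 counts and 0 counts. Of the 16 other WAP family genes, 2 were at least 2-fold higher in each library and 12 were not, with 9 at 0 counts in both. Of the 18 other lipocalins, 1 was at least 2-fold higher in each library and 11 had 0 counts in both. PAEP, higher in H2087, had 3.37 FPKM there and 0 FPKM in H596. APOD, higher in H596, had 0.185 FPKM in H2087 and 6.26 FPKM in H596. LCN2 had 13.8 FPKM in H2087 and 460.4 FPKM in H596. Of the 12 other BPI fold genes, 1 was at least 2-fold higher in H2087. This was PLTP, the phospholipid transfer protein of plasma lipoproteins, with an FPKM of 34.5 and 0.151. PLTP begins 107 kb beyond the end of WFDC3 on chromosome 20. Of the 2 other transferrin family genes, TF had 0 counts in both libraries and MELTF an FPKM of 8.94 and 3.98.

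Of 12 genes for receptors and partners of the secreted proteins, 8 had an FPKM under 1 in both libraries, where the log2(FPKM + 1) scale cannot show a 2-fold difference. The other 4 were LGALS3, CD44, TMEM219 and LRP1, and 0 of them passed the 2-fold limit on that scale. LGALS3 and CD44, which encode reported binding partners of CHI3L1, had an FPKM of 274 and 43.4 in H2087 and 293 and 29.0 in H596. TMEM219, also on this list, had 61.3 and 36.1. LRP1, a scavenger receptor gene, had 3.58 and 7.15. IL13RA2, a further receptor gene, had 0 counts in both. The LCN2 receptor genes were low but not alike, SLC22A17 with 98 counts in H2087 and 11 in H596, and LRP2 with 219 and 0. The SLPI targets ELANE and CTSG had 0 counts.

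Of 24 genes for other secreted proteins of the airway, 6 were at least 2-fold higher in H596 and 3 at least 2-fold higher in H2087, with a median difference of 0.03 on the log2(FPKM + 1) scale beside 0 for all listed genes. Among all listed genes 9.19% were higher in H596 and 7.45% higher in H2087 by this rule, and nothing particular to the 24 is read from their counts. GPX3, a secreted glutathione peroxidase, had 77.7 FPKM in H2087 and 0 counts in H596. SERPINA1, which encodes the elastase inhibitor alpha-1-antitrypsin, had 45.02 and 0.790, and TCN1, a cobalamin carrier, 39.1 and 1.998. In the other direction, CP, the ferroxidase ceruloplasmin, had 5.80 and 155, complement C3 had 0.211 and 11.0, and ZG16B had 3.10 and 19.6. AGR2, the highest of the 24 in both libraries, had 302 and 896 and was also at least 2-fold higher in H596. Lysozyme (LYZ) and the gel-forming mucins MUC5AC and MUC5B had an FPKM below 0.1 in both libraries.

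Of 17 transcription factors known to act in secretory epithelium or in the inflammatory response, 2 were at least 2-fold higher in H596 and 5 at least 2-fold higher in H2087, with a median difference of 0.07. The shares among the 13048 expressed genes were 18.2% and 14.2%, and nothing particular to the 17 is read from their counts. NKX2-1, a lung lineage factor, had 110.0 FPKM in H2087 and 0.508 FPKM in H596. FOXA2, which acts in endoderm, had 30.5 and 0.116. CEBPD, a C/EBP factor of the acute phase response, had 137 and 17.0, while CEBPB had 14.4 and 39.5. CEBPA, the other factor higher in H596, had 0.349 and 9.50. NFKB1, which encodes an NF-kB subunit, lay at the 2-fold limit, with an FPKM of 10.8 and 21.7 and a difference of 0.94 on the log2(FPKM + 1) scale. The other NF-kB genes NFKB2, RELA and RELB, their cofactor NFKBIZ and ELF3, an epithelial ETS factor, differed by less than 2-fold. Whether any of these factors acts on the 10 genes was not tested.

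**Figure D5:**
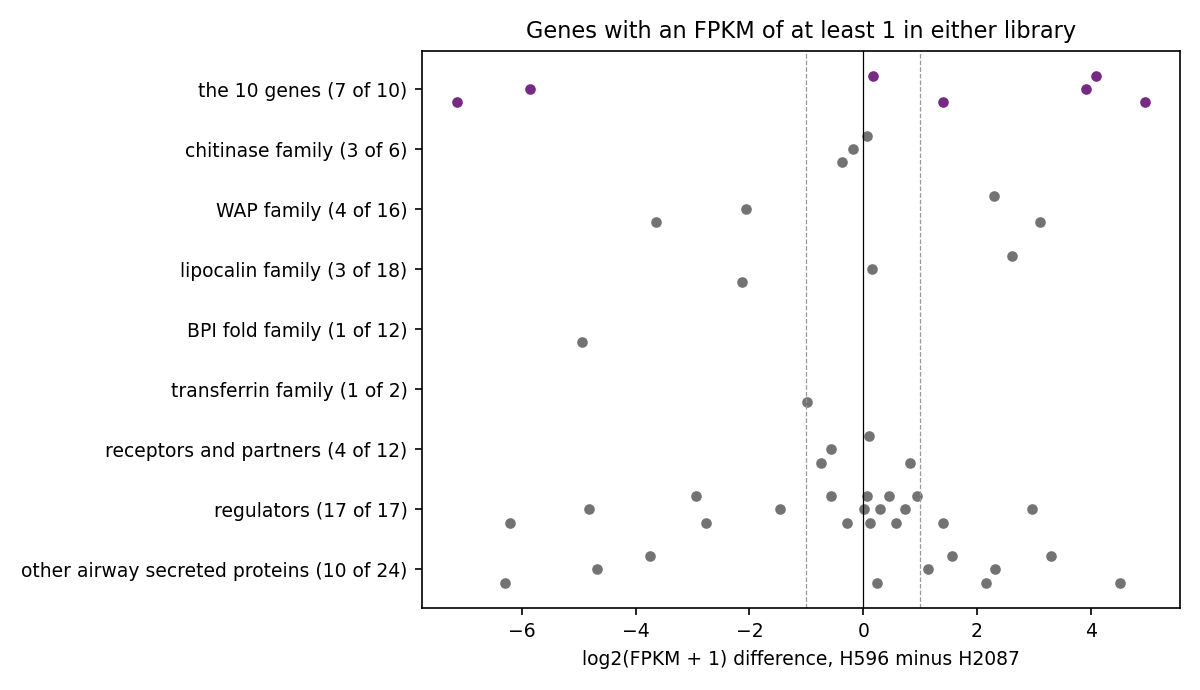
log2(FPKM + 1) difference, H596 minus H2087, of the 10 genes (purple) and of related genes (grey), for genes that reached an FPKM of 1 in either library, with the number shown and the number in the list. The 3 chitinase family genes and the 4 receptors and partners drawn lie within the dashed 2-fold limits, while the other airway secreted proteins spread to both sides. Other secretoglobin and trefoil genes are not drawn, since all had 0 counts.

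Markers of cell types were compared with the labels. Of all 27685 listed genes, 9.19% were higher in H596 and 7.45% in H2087 by the 2-fold rule. An FPKM under 1 in both libraries was found for 13892 of them. Nothing is read from the counts of markers below against these shares. KRT7, a keratin of lung adenocarcinoma, was high in both libraries, with 791 FPKM in H2087 and 608 FPKM in H596. NAPSA, another such marker, had 21.9 in H2087 and 0.0645 in H596, and SFTPB had 0.123 (22 counts) and 0. With NKX2-1, 3 of the 4 adenocarcinoma markers were thus under an FPKM of 1 in H596, and of these SFTPB was under it in H2087 too. All 4 basal cell markers were at least 2-fold higher in H596, with a summed FPKM of 0.242 in H2087 against 174 in H596. Of these, KRT5 had 0 counts in H2087 and an FPKM of 106 in H596, TP63 had 0.183 and 55.2, and NGFR 0.0588 and 11.1. Of the 6 alveolar type 2 markers, 3 were at least 2-fold higher in H2087 and 1 in H596. Besides NAPSA, these were SFTPA1, with an FPKM of 82.9 and 0 counts, ABCA3, with 10.6 and 0.640, and LAMP3, with 1.13 and 7.24. SFTPB and SFTPC were under an FPKM of 1 in both libraries. All 4 epithelial markers were expressed in both libraries. EPCAM had an FPKM of 375 and 65.0, KRT8 2493 and 536, KRT18 3607 and 234, and CDH1 52.3 and 59.6. Of the 4 ciliated cell markers, FOXJ1 was higher in H2087, with 9.07 and 0.331, and CAPS higher in H596, with 2.87 and 9.596. The 9 neutrophil and leukocyte markers had an FPKM under 1 in both libraries, with PTPRC, ELANE, CTSG and CEACAM8 at 0 counts, and their summed FPKM was 0.610 and 0.346. Of the 6 macrophage markers, only CD68, a lysosomal protein that other cells also make, was above 1, with 128 and 25.6. The part of these differences in the values of the 10 genes was not tested.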

How the data were processed

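RNA-seq of 1 H2087 and 1 H596 library was used. Per the labels and the study's methods, the authors isolated total RNA with TRIzol, built TruSeq stranded mRNA libraries, aligned reads to hg19 with HISAT2 2.0.5 and estimated abundance with StringTie 1.3.3b (bcl2fastq 1.8.4 and Trimmomatic are also named). The deposited FPKM values and the deposited estimated counts (whole numbers, given per gene and per transcript) were used as they are. Count and FPKM are tied by transcript length and 1 constant per library (within 1% for 100% of 2567 and 2955 single-transcript genes), so they are not independent measures. Whether both mates of a pair were counted is not given in the sources used here. If so, intervals are too narrow.

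The members and lists were chosen with earlier results of these data known. Values are given per library. Intervals are 95% Wilson intervals, and 95% exact (Clopper-Pearson) intervals for ratios of count shares (scipy 1.17.1). A pseudocount of 1 was used for log2 differences, and 3 counts as the limit of a count of 0. Gene ranks are among 27685 genes, by FPKM. From each list, genes that reached an FPKM of 10 in either library and differed by at least 2-fold were named, at most 6 by size of the difference, and other list genes given beside a count were picked with their values in view. The 3 listed genes on either side of each member were also examined, and those of BPIFB1 are not all reported here. Strand is from GENCODE 44 on GRCh37. Alternatives were edgeR 4.0.16 TMM and median-of-ratios scaling, TPM, centring, a pseudocount of 0.1, transcript values, and other filters and thresholds. The scripts were checked on simulated counts. Python 3.11.15, numpy 2.4.6, pandas 2.3.3 and R 4.3.3 were used.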

Additional observations from a re-analysis of the deposited data

How the results depend on the processing

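The numbers of genes at least 2-fold higher in H2087 (2) and in H596 (4) stayed between 2 and 3 and between 3 and 4 under all 9 alternatives. The third gene in H2087 was TFF3 with a pseudocount of 0.1, where its difference went from -0.20 to -1.32. The differences of CHI3L1, WFDC2, LCN2, PIGR, SCGB1A1 and SLPI kept their direction and their side of the 2-fold limit under 6 of 6 alternatives. The size of large differences depended on the pseudocount, since at 0.1 CHI3L1 went from -7.15 to -10.46 and SCGB1A1 from 4.09 to 7.34. SLPI ranged from 1.27 with TMM scaling to 1.59 with TPM. BPIFB1 ranged from 0.05 to 0.35, so its direction is not read. In TPM the summed level was 696 in H2087 and 1853 in H596, a rescaling by 1 factor per library. The median difference of the 13048 genes was 0.12, and it was 0.30 in TPM and 0.01 with median-of-ratios scaling. Values by the highest transcript could not differ, because every detected member has 1 listed transcript. No paired analysis was possible because only 1 library represents each line, and no library could be left out. Depth limits WFDC2 in H596 and TFF3 in H2087, which rest on 4 and 8 counts.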

Other observations

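Genes with a clear level in one library and 0 counts in the other were few. In H2087, 42 of the 6225 genes that reached an FPKM of 10 (0.675%) had 0 counts in H596, among them CHI3L1, its neighbour MYBPH and GPX3. In H596, 39 of 6736 such genes (0.579%) had 0 counts in H2087, among them SCGB1A1. Because CHI3L1 and SCGB1A1 were listed with these differences in view, nothing is read from their place among such genes.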
